A study of Homo sapiens with 7 samples.

Results

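The regions described here were 1021 peaks of O-GlcNAc-modified protein on chromatin that no peak of RNA polymerase II (Pol II) and no peak of SPT5 overlapped. They were chosen by the absence of any overlap, down to 1 bp, with both lists, among the 8988 O-GlcNAc peaks on chromosomes 1 to 22, and are called Pol II/SPT5-free peaks. They made up 11.4% of the O-GlcNAc list, and the 5 lists of the study held 129710 peaks on these chromosomes. They were mapped by ChIP-seq, the sequencing of DNA precipitated with an antibody, in BJAB, a B-cell line established from a human Burkitt's lymphoma and used at several passages, with no treatment named in the labels. Pol II was precipitated with antibody 8WG16, O-GlcNAc with RL2, OGA with an antibody labelled NCOAT, and SPT5 and TRIM28 with antibodies of those names. Each antibody had 1 library and 1 peak list, and the libraries of mouse and rabbit IgG were not analysed here. No comparison could therefore be tested against replicates. The 95% intervals cover counting error only, and the sequencing depth of the libraries is unknown. Positions are those of the human build hg19, and the genes at them were not analysed here.

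O-GlcNAc is a single sugar that the enzyme OGT puts on serine and threonine residues inside the cell and that OGA, also called NCOAT, takes off. Many chromatin and transcription proteins carry it, the large subunit of Pol II among them, so a peak of the RL2 antibody names the sugar and not the protein that bears it. SPT5 is part of DSIF, a complex that holds Pol II at the pause near promoters and later travels with it. TRIM28 (KAP1, TIF1b) is recruited to DNA by KRAB zinc finger proteins and represses there, and the title of the series places it with SPT5 among pausing factors. OGA and TRIM28 played no part in choosing the peaks, whereas Pol II and SPT5 did.

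Most of the O-GlcNAc list lay on the other side of the rule. Pol II and SPT5 both overlapped 7278 O-GlcNAc peaks, SPT5 without Pol II overlapped 669, and Pol II without SPT5 overlapped 20. The rule turned on few base pairs at its edge: the Pol II/SPT5-free peak at chromosome 22, 22294060 to 22294226, ended 2 bp from an SPT5 peak, and the next closest ended 3 and 4 bp from one. On the outer side, the peak at chromosome 19, 703881 to 704325, overlapped Pol II by 3 bp, and the next smallest overlaps were 7 and 8 bp. Such near misses were few, since 56 of the 1021 peaks (5.48%) had a Pol II or SPT5 peak within 1 kb of their ends.

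TRIM28 and OGA were both scarcer at these sites than over the whole O-GlcNAc list. The TRIM28 list held 43998 peaks and the OGA list 2503, so their shares cannot be ranked against each other. TRIM28 peaks overlapped 77 of the 1021 Pol II/SPT5-free peaks, or 7.54% (Wilson interval 6.08% to 9.33%), where they overlapped 60.4% of the whole O-GlcNAc list. At O-GlcNAc peaks with SPT5 and no Pol II the share was 29.1% (25.8% to 32.7%), and at those with Pol II and SPT5 it was 70.7% (69.7% to 71.8%). The difference from the first group was 21.6 percentage points (Newcombe interval 17.8 to 25.5) and from the second 63.2 points (61.1 to 65.0). OGA peaks overlapped 23 of the Pol II/SPT5-free peaks, or 2.25% (1.51% to 3.36%), against 6.72% of the whole list. The OGA share was 7.61% (7.03% to 8.24%) with Pol II and SPT5, which was 5.36 points higher (4.11 to 6.34). It was 3.74% with SPT5 alone, and that difference of 1.48 points had an interval from -0.142 to 3.36, which includes no difference. Neither TRIM28 nor OGA was present at 928 of the Pol II/SPT5-free peaks (90.9%, interval 89.0% to 92.5%), so that no peak of any other list met them. TRIM28 without OGA was present at 70, OGA without TRIM28 at 16 and both at 7.

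**Figure D1:**
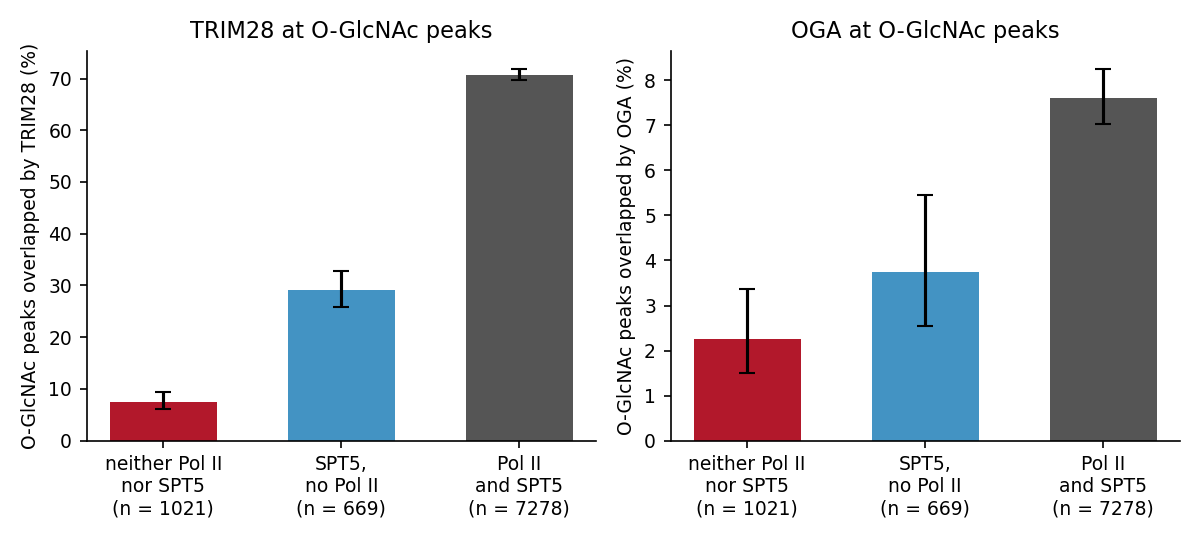
Share of O-GlcNAc peaks (%) overlapped by TRIM28 (left) and OGA (right), for the 1021 peaks with neither Pol II nor SPT5, the 669 with SPT5 and no Pol II and the 7278 with both; bars are shares and error bars 95% Wilson intervals. TRIM28 shares run from 7.54% to 29.1% and 70.7%, while the OGA intervals of the first pair of groups overlap.

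The TRIM28 share was low at every height and width of the O-GlcNAc peak. Across the 4 quartiles of fold enrichment over the authors' background, TRIM28 met 8.91%, 8.62%, 5.12% and 7.87% of the Pol II/SPT5-free peaks from the lowest to the highest. In the same quartiles it met 74.4%, 70.8%, 68.9% and 69.0% of the peaks with Pol II and SPT5. Across quartiles of width, the TRIM28 share of the Pol II/SPT5-free peaks was 6.84%, 8.66%, 9.38% and 9.09%, the last over 22 peaks wide enough for the top quartile. At peaks with SPT5 and no Pol II it lay between 21.7% and 41.8% in each width quartile. In no quartile of either measure did the interval of the Pol II/SPT5-free peaks reach that of the peaks with Pol II and SPT5. The TRIM28 share depended on list length: with the SPT5 and TRIM28 lists shortened to the length of the Pol II list it was 4.34%, against 33.7% at peaks with Pol II and SPT5.

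Where TRIM28 was present, its peaks were of ordinary height for the TRIM28 list. The 77 TRIM28 peaks had a median TRIM28 fold enrichment of 3.56 (interval of the median 3.25 to 3.87), and their median rank stood at the 52.0th percentile of that list. TRIM28 peaks at O-GlcNAc sites with Pol II and SPT5 were lower, with a median of 2.93 (2.90 to 2.95) at the 29.0th percentile. So were those at sites with SPT5 and no Pol II, with a median of 3.01 (2.87 to 3.12) at the 32.4th percentile. The summits of O-GlcNAc and TRIM28 lay a median of 76 bp apart at the Pol II/SPT5-free peaks (52 to 118 bp), and 29 of the 77 lay within 50 bp. The median was 88 bp (75 to 104 bp) at sites with SPT5 and no Pol II and 103 bp (99 to 106 bp) at sites of Pol II and SPT5. Both intervals overlap that of the Pol II/SPT5-free peaks. Of the 77 TRIM28 peaks, 3 reached an SPT5 peak beyond the O-GlcNAc peak and 0 reached a Pol II peak. The highest was at chromosome 12, 107987379 to 107987869, with a TRIM28 fold enrichment of 11.1. It covered most of an O-GlcNAc peak at 107987559 to 107987918 whose own fold enrichment was 4.24, and the nearest Pol II summit was 91948 bp away. The next were at chromosome 3, 127278824 to 127279345 (TRIM28 fold enrichment 9.87), and chromosome 1, 161226817 to 161227355 (9.24).

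The 23 peaks with OGA met TRIM28 less often than other O-GlcNAc peaks with OGA, but more often than the whole Pol II/SPT5-free set. They met 22 OGA peaks, since a pair of neighbouring O-GlcNAc peaks on chromosome 10 shared 1. TRIM28 was present at 7 of the 23, or 30.4% (15.6% to 50.9%). It was present at 512 of 554 O-GlcNAc peaks with OGA, Pol II and SPT5 (92.4%, 89.9% to 94.3%), and at 20 of 25 with OGA and SPT5 alone (80.0%, 60.9% to 91.1%). Of all 2503 OGA peaks on these chromosomes, 90.3% met TRIM28. Over all 1021 Pol II/SPT5-free peaks the TRIM28 share was 7.54% (6.08% to 9.33%), an interval below that of the 23. For the 22 OGA peaks at Pol II/SPT5-free sites the median OGA fold enrichment was 5.70 (4.06 to 10.2), at the 89.7th percentile. It was 3.26 (3.12 to 3.34) for OGA peaks at O-GlcNAc sites with Pol II and SPT5. At sites with SPT5 and no Pol II it was 3.59 (2.86 to 5.10), an interval that overlaps the first. Across the OGA list, TRIM28 met 75.9% (69.8% to 81.1%) of the 220 OGA peaks with a fold enrichment of 5.70 or more and 91.6% (90.4% to 92.7%) of the lower ones. The limit of 5.70 was itself the median of the 22 OGA peaks at Pol II/SPT5-free sites. There TRIM28 met 2 of the 11 high peaks (18.2%, 5.14% to 47.7%) and 5 of the 11 lower ones (45.5%, 21.3% to 72.0%), with overlapping intervals. The OGA and O-GlcNAc summits lay a median of 26 bp apart (16 to 80 bp) at the 23 sites, and 15 of 23 lay within 50 bp. The median was 33 bp (13 to 73 bp) at sites with SPT5 alone, where 15 of 25 lay within 50 bp, and 73 bp (65 to 81 bp) at sites with Pol II and SPT5. Both intervals overlap that of the 23 sites.

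Ranked by OGA fold enrichment, the OGA peaks at these sites ran from rank 1 to rank 1530. The highest OGA peak on chromosomes 1 to 22, at chromosome 17, 65422 to 66250, with an OGA fold enrichment of 26.0, lay over an O-GlcNAc peak at 65487 to 66174 with a fold enrichment of 7.53. Their summits were 7 bp apart, no TRIM28 peak overlapped, and the nearest Pol II summit was 170066 bp away; this site was picked out after its values were seen. The highest O-GlcNAc peak with OGA and no TRIM28 was at chromosome 1, 177953309 to 177953686. Its O-GlcNAc fold enrichment was 16.0 and its OGA fold enrichment 9.01, with summits 13 bp apart. The next by O-GlcNAc height were at chromosome 16, 31232588 to 31233244 (O-GlcNAc 9.13, OGA 10.3, summits 1 bp apart), and chromosome 12, 131238942 to 131239570 (O-GlcNAc 9.08, OGA 4.23, summits 17 bp apart). Among the 7 sites with both OGA and TRIM28, the highest O-GlcNAc peak was at chromosome 3, 127278890 to 127279764, with fold enrichments of 6.99 for O-GlcNAc, 3.41 for OGA and 9.87 for TRIM28, each within its own list. It was followed by chromosome 14, 102062572 to 102062886 (O-GlcNAc 4.87, OGA 10.9, TRIM28 2.87), and chromosome 3, 18265110 to 18265290 (2.92, 3.86 and 3.00 for the same factors).

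Distances to Pol II and SPT5 were measured from summit to summit, and the rule itself removed the shortest. The nearest Pol II summit lay a median of 66670 bp from the Pol II/SPT5-free summits (59273 to 76538 bp), with quartiles at 20313 and 176509 bp and extremes of 301 and 2878268 bp. The nearest SPT5 summit lay closer, at a median of 41472 bp (34664 to 46677 bp), with quartiles at 10855 and 128114 bp. SPT5 had the longest list of the study, with 54885 peaks against 19336 for Pol II. By distance to Pol II, 19 peaks (1.86%) lay within 1 kb, 130 (12.7%) from 1 to 10 kb, 472 (46.2%) from 10 to 100 kb, 384 (37.6%) from 100 to 1000 kb and 16 (1.57%) beyond. For SPT5 the same bins held 42, 200, 475, 291 and 13 peaks. The peaks were thus spread over several orders of distance, and 254 (24.9%) had a summit of either factor within 10 kb. O-GlcNAc peaks with SPT5 and no Pol II lay nearer to Pol II, at a median of 21643 bp (18636 to 26309 bp).

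The nearest SPT5 summit was the closer one at 719 Pol II/SPT5-free peaks and the nearest Pol II summit at 290, with 12 ties. At 403 peaks (39.5%) the 2 distances differed by at most 100 bp. TRIM28 summits lay at a median of 18085 bp (16217 to 20557 bp), and 369 peaks (36.1%, interval 33.3% to 39.1%) had one within 10 kb. The rule removed peaks overlapped by Pol II or SPT5 and kept those overlapped by TRIM28, so these medians cannot be ranked against each other. Over the whole O-GlcNAc list the median distances were 150 bp to SPT5, 179 bp to Pol II and 213 bp to TRIM28. At O-GlcNAc peaks with SPT5 and no Pol II, 60.8% had a TRIM28 summit within 10 kb (57.1% to 64.5%). OGA summits, from the shortest list, lay a median of 299397 bp away. The share of peaks overlapped by TRIM28 was 5.26% (1 of 19, 0.935% to 24.6%) within 1 kb of Pol II, 13.1% (8.33% to 19.9%) at 1 to 10 kb and 6.78% (4.84% to 9.41%) at 10 to 100 kb, with overlapping intervals. Of the 23 peaks with OGA, 6 lay 1 to 10 kb from an SPT5 summit, 10 at 10 to 100 kb and 7 at 100 to 1000 kb. All 23 lay over 10 kb from Pol II, 12 of them at 10 to 100 kb and 11 at 100 to 1000 kb. No OGA peak met the 149 peaks closer than that, and a count of 0 allows a share of up to 2.01% by the limit of 3 counts and 2.51% by the Wilson interval, which includes the 2.25% of the whole set.

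**Figure D2:**
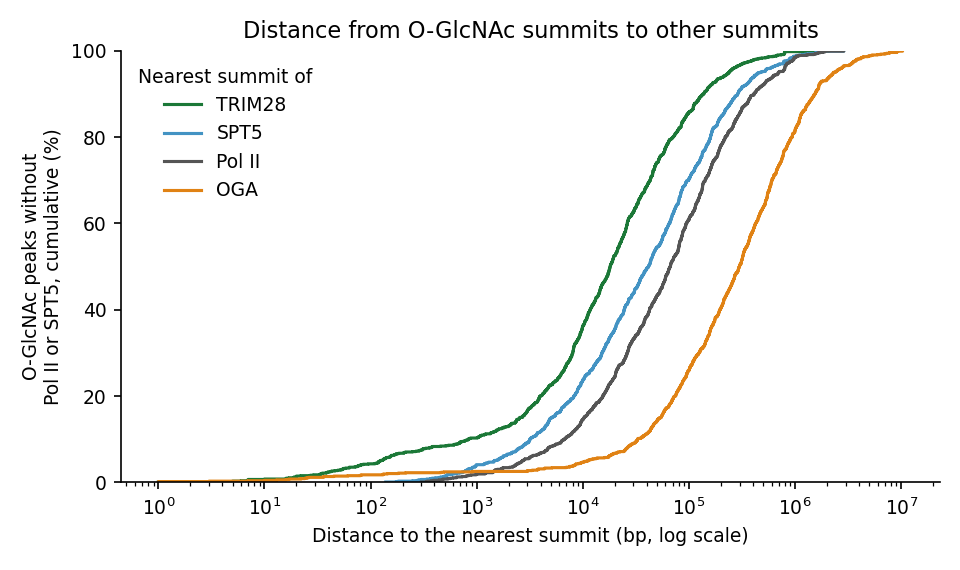
Cumulative share (%) of the 1021 Pol II/SPT5-free O-GlcNAc peaks against the distance from their summit to the nearest TRIM28, SPT5, Pol II and OGA summit (bp, log scale; a distance of 0 would be drawn at 1). The TRIM28 curve lies to the left, with a median of 18085 bp, followed by SPT5 (41472 bp), Pol II (66670 bp) and OGA (299397 bp). The rule removed the shortest distances to Pol II and SPT5 but not those to TRIM28 and OGA, so the order of the curves depends on it.

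Part of the set stood far from everything. For 104 peaks (10.2%, interval 8.48% to 12.2%) no Pol II, SPT5 or TRIM28 summit lay within 100 kb, and no OGA summit did either. The peak farthest from Pol II was at chromosome 13, 57859851 to 57860025, with a fold enrichment of 2.68, a Pol II summit 2878268 bp away and an SPT5 summit 2878249 bp away. The next were at chromosome 14, 85010964 to 85011240 (fold enrichment 3.47, 1902078 bp from Pol II), and chromosome 13, 58836615 to 58836806 (2.69, 1901587 bp). These 3 peaks had a TRIM28 summit at 53897 to 167539 bp.

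The Pol II/SPT5-free peaks were narrower than the rest of the list and close to it in height. Their median fold enrichment was 3.77 (3.68 to 3.85), with quartiles at 3.09 and 4.68, against 3.92 (3.87 to 3.98) for O-GlcNAc peaks with Pol II and SPT5 and 3.63 (3.49 to 3.75) for those with SPT5 alone. Their median width was 233 bp (226 to 237 bp), against 406 bp (402 to 412 bp) and 300 bp (285 to 311 bp). Of the 1021, 619 (60.6%) were narrower than 250 bp, against 34.7% of the peaks with SPT5 alone and 16.5% of those with Pol II and SPT5. The smallest width in the O-GlcNAc list, 167 bp, was held by 45 of them (4.41%). It was held by 11 of the 669 peaks with SPT5 alone (1.64%) and by 45 of the 7278 with Pol II and SPT5 (0.618%). The widest was at chromosome 9, 140044810 to 140046065, with 1256 bp, and it was the single one over 1 kb. The −log10 q values were lower than with Pol II and SPT5, with a median of 8.48 (8.08 to 8.94) against 20.4 (19.8 to 21.0). With SPT5 alone the median was 10.6 (9.28 to 11.6). Values under 5 were held by 26.3% of the peaks with SPT5 alone and by 23.9% of the Pol II/SPT5-free peaks. The difference from peaks with Pol II and SPT5 held at like heights. In the quartile of fold enrichment from 3.87 to 5.20 the median −log10 q was 11.6 and the median width 240 bp. The values there were 17.0 and 308 bp with SPT5 alone, and 27.6 and 444 bp with Pol II and SPT5. In the lowest quartile the median −log10 q was 3.71, against 3.58 with SPT5 alone.

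The share of Pol II/SPT5-free peaks was highest at middle heights of the O-GlcNAc list. Among 10 deciles of fold enrichment it was 7.34% in the lowest and 8.57% in the next. It then lay between 12.2% and 15.9% from the third to the seventh, and went down to 7.01% in the highest. The intervals of the lowest decile (5.81% to 9.23%) and the highest (5.52% to 8.87%) did not reach that of the fourth (13.7% to 18.5%). The very top was different in number, though it held few peaks: 4 of the 10 highest O-GlcNAc peaks were Pol II/SPT5-free, whereas 7 of the 100 highest and 71 of the 1000 highest were.

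**Figure D3:**
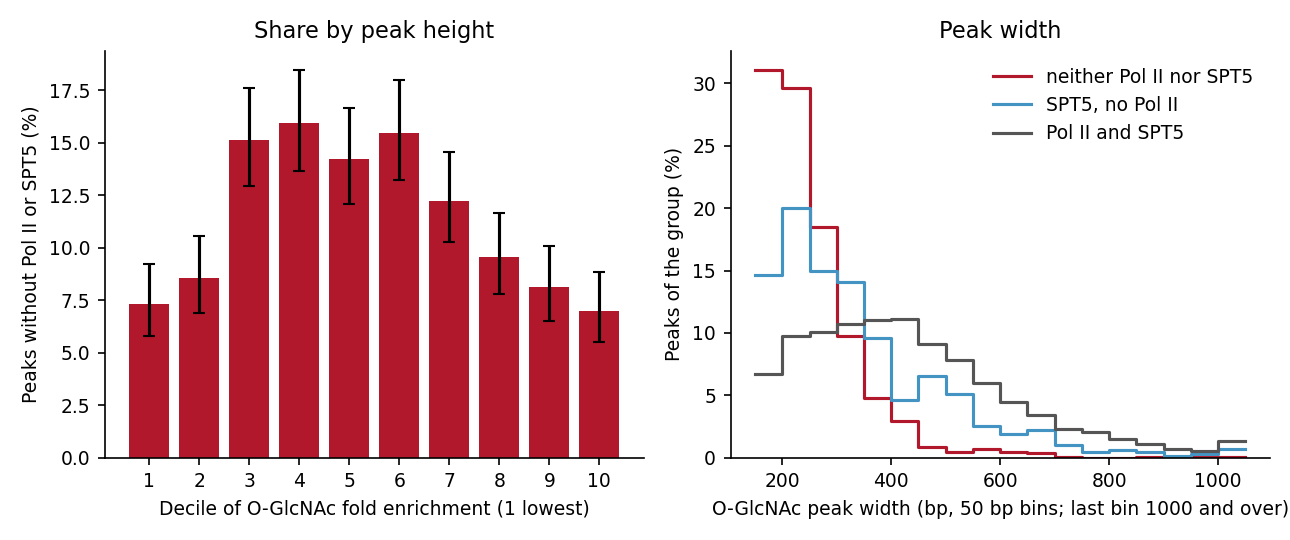
Left, share (%) of O-GlcNAc peaks without Pol II or SPT5 in each decile of O-GlcNAc fold enrichment, with 95% Wilson intervals; right, distribution of peak widths (% of the group in bins of 50 bp) in 3 groups of O-GlcNAc peaks. The share lies between 7.01% and 15.9%, and the Pol II/SPT5-free peaks gather at the narrow end, with a median of 233 bp against 406 bp for peaks with Pol II and SPT5.

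The 5 highest Pol II/SPT5-free peaks lay in different surroundings. The first, at chromosome 19, 8617586 to 8618026, had a fold enrichment of 17.8, rank 2 of the O-GlcNAc list, with its nearest Pol II and SPT5 summits 24446 and 24475 bp away. Within 50 kb of its summit lay 5 Pol II, 6 SPT5 and 3 TRIM28 summits and no OGA summit. The peak at chromosome 1, 228361673 to 228362337 (17.0), had the highest −log10 q of the set, 171, and stood 7863 bp from a Pol II summit, 7972 bp from TRIM28 and 8308 bp from OGA. On 1 side of it, 2 clusters of peaks within 50 kb each held all 5 lists. The OGA-bearing peak at chromosome 1, 177953309 (16.0), and that at chromosome 14, 99492767 to 99493206 (14.2), stood in sparse regions, with no Pol II or SPT5 summit within 50 kb. At the chromosome 14 site the nearest SPT5 summit was 239958 bp away, the nearest TRIM28 summit 402169 bp and the nearest Pol II summit 454087 bp. The fifth, at chromosome 7, 150689804 to 150690164 (11.5), lay 1786 bp from Pol II, 1787 bp from SPT5 and 2107 bp from TRIM28. Of these 5, OGA overlapped 1 and TRIM28 overlapped none.

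**Figure D4:**
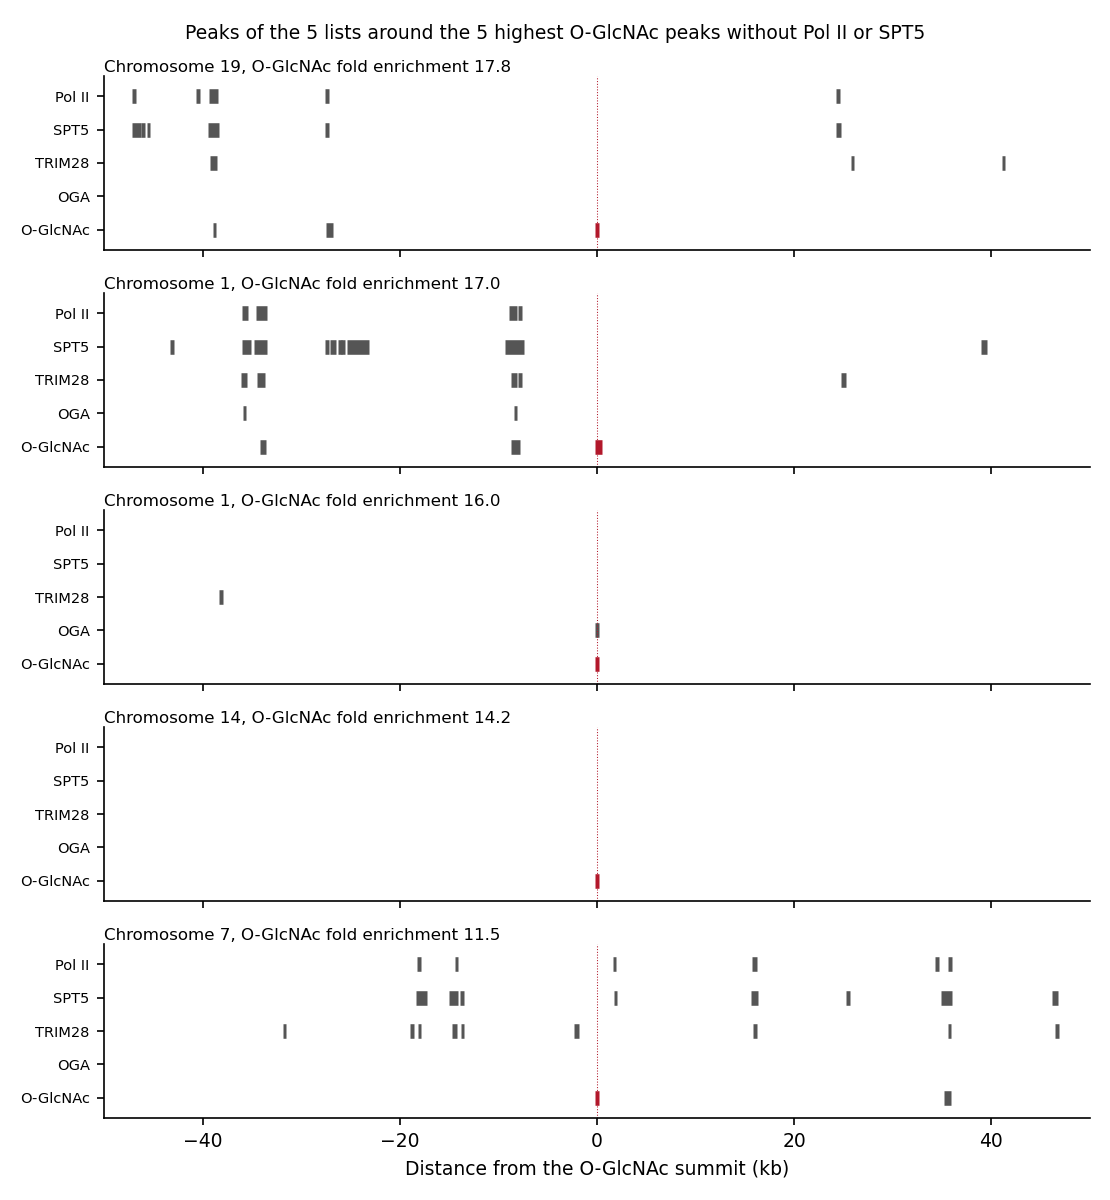
Peaks of the 5 lists within 50 kb of the summits of the 5 highest Pol II/SPT5-free O-GlcNAc peaks (red), drawn by distance from the summit (kb); bars are peaks, the narrowest widened to be visible. The third panel shows an OGA peak at the summit and no Pol II or SPT5 peak, and the fourth shows no peak other than O-GlcNAc.

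A small group at the low end of the height range was placed differently from the rest. Of the 1021 peaks, 36 (3.53%) had a fold enrichment under 2, from 1.26 to 1.96, a limit set after the values were seen. Of these, 26 (72.2%, interval 56.0% to 84.2%) lay within 1 Mb of 1 of the 35 stretches of at least 2.5 Mb without a peak of any list, against 10 of the other 985 (1.02%, 0.552% to 1.86%). The limits of 2.5 Mb and 1 Mb were not fixed beforehand either. Many of the low peaks lay in groups and are not independent, so the interval is too narrow. Some of them bound a stretch themselves, which places them beside it by construction. Long peak-free stretches include the centromeres, which are largely unsequenced in hg19. Groups of low peaks lay at chromosome 4, 49110377 to 49639775 (8 peaks, the last of them bordering a stretch of 3.07 Mb), and at chromosome 17, 22247891 to 22260890 (6 peaks, bordering 3.10 Mb). Another 8 flanked a single stretch on chromosome 8, with 4 on either side. The low peaks lay a median of 487366 bp from Pol II and 4492 bp from SPT5, but the SPT5 distances were split between groups. The 8 on chromosome 4 lay 246054 to 775307 bp from SPT5, and all those in the groups on chromosomes 17 and 8 lay within 10 kb of it. TRIM28 met 1 of the 36 low peaks and OGA met 0, which allows a share of up to 8.33% by the limit of 3 counts and 9.64% by the Wilson interval. Of all O-GlcNAc peaks 232 of 8988 (2.58%) were as low, of those with SPT5 and no Pol II 94 of 669 (14.1%, 11.6% to 16.9%), and of those with both 1.40%. Without these 36 peaks the TRIM28 share was 7.72% and the OGA share 2.34%. Whether repeated sequence plays a part in them was not tested.

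The Pol II/SPT5-free peaks were spread over all 22 chromosomes, in proportion to the O-GlcNAc list on most of them. Chromosome 19 held the most, 104 peaks, or 10.2% of the set (8.48% to 12.2%), and it held 10.1% of all O-GlcNAc peaks. The share of a chromosome's O-GlcNAc peaks that were Pol II/SPT5-free ran from 8.18% on chromosome 6 to 17.3% on chromosome 20. The intervals lay above the overall share on chromosome 20 (56 of 324 peaks, 13.6% to 21.8%), chromosome 8 (53 of 311, 17.0%, 13.3% to 21.6%) and chromosome 4 (44 of 282, 15.6%, 11.8% to 20.3%). On chromosome 1 the interval lay below it (77 of 878, 8.77%, 7.07% to 10.8%). These intervals were not adjusted for the 22 chromosomes compared. With peaks of fold enrichment under 2 left out, the share was 11.2% over all chromosomes, 17.4% on chromosome 20 (13.6% to 21.9%), 15.2% on 13 (10.6% to 21.2%), 15.1% on 8 (11.5% to 19.6%) and 13.2% on 4. The interval of chromosome 4 (9.68% to 17.7%) then included the overall share, as that of chromosome 13 did, and the interval of chromosome 6 (5.68% to 11.2%) lay just below it. Distances also differed between chromosomes. The median gap between O-GlcNAc and Pol II summits was 21580 bp on chromosome 19 and 155533 bp on chromosome 8.

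**Figure D5:**
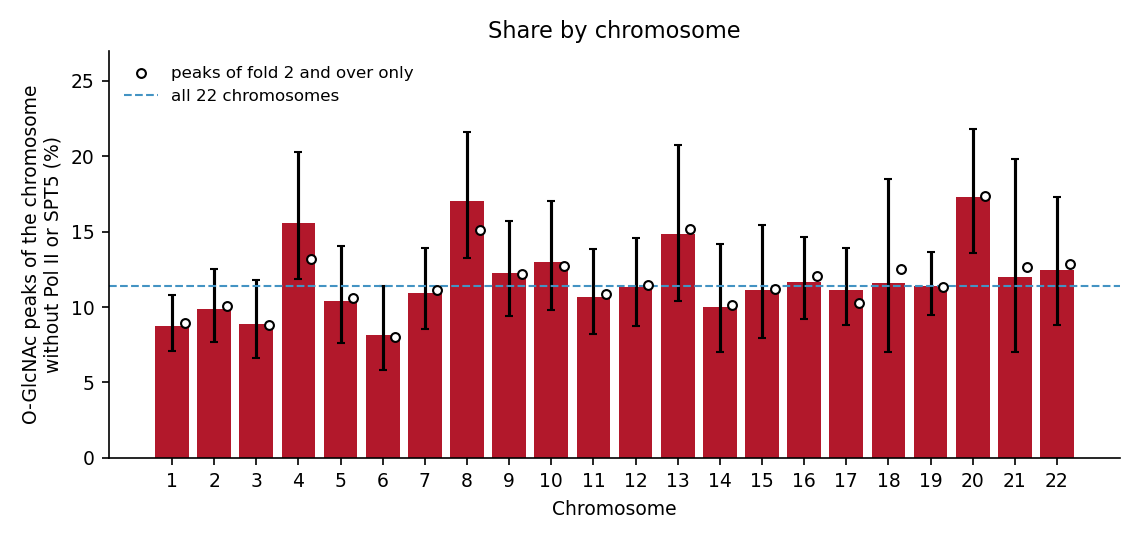
Share (%) of the O-GlcNAc peaks of each chromosome that lack Pol II and SPT5; bars give the share, error bars its 95% Wilson interval, circles the share among peaks of fold 2 and over, and the dashed line the share over all 22 chromosomes (11.4%). With all peaks, chromosomes 20, 8 and 4 stand highest; among peaks of fold 2 and over, chromosome 13 (15.2%) stands above 8 (15.1%) and 4 (13.2%).

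Windows of 1 Mb with many Pol II/SPT5-free peaks were of several kinds. The richest was chromosome 19, 49000001 to 50000000, with 11, in a window that also held 46 Pol II, 97 SPT5, 76 TRIM28 and 44 O-GlcNAc peaks. The 11 were fairly high, with fold enrichments from 4.40 to 10.3, lay 533 to 38649 bp from Pol II, and none met TRIM28. The TRIM28 share of the whole set was 7.54%, and 11 peaks are too few to compare with it. The windows that follow were named after their values were seen. The window from 51000001 on the same chromosome held 9 of 18 O-GlcNAc peaks, at 5590 to 114858 bp from Pol II. On chromosome 16, 86000001 to 87000000, 6 of 8 O-GlcNAc peaks were Pol II/SPT5-free, with a median fold enrichment of 5.20 and Pol II at 63304 to 252578 bp. On chromosome 4, 49000001 to 50000000, all 8 O-GlcNAc peaks belonged to the low group described above and no other list had a peak in the window.

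Pol II/SPT5-free peaks stood apart from other O-GlcNAc peaks too. Their nearest O-GlcNAc neighbour lay a median of 78641 bp away (68747 to 87028 bp), against 24201 bp (19005 to 27744 bp) for peaks with SPT5 and no Pol II and 39324 bp (37732 to 40848 bp) for peaks with Pol II and SPT5. For 241 of the 1021 (23.6%) that neighbour was itself Pol II/SPT5-free, where such peaks made up 11.4% of the list. The share was 13.8% for peaks with SPT5 and no Pol II and 7.54% for peaks with Pol II and SPT5. The groups of low peaks described above were not left out of these counts. For 674 (66.0%) the neighbour carried Pol II and SPT5, against 67.9% for peaks with SPT5 and no Pol II and 86.1% for peaks with both. Peaks with both were 7278 of the 8988 in the list.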

How the data were processed

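Bowtie2 2.1.0, Trimmomatic 0.30, bcl2fastq 2.17 and the build hg19 are named, per the submitters' processing notes. For the peak caller, control and threshold no name or value was given in those notes or the labels. The authors deposited 1 list of peaks per sample in the narrowPeak layout. The fold enrichment deposited by the authors is a ratio to a background not given here, and it was compared within 1 list only. The deposited −log10 p and q values refer to the same background, and the smallest −log10 q was 1.30. The deposited score was not used. Positions are 1-based.

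Overlap of at least 1 bp was counted. Shares have 95% Wilson intervals, differences Newcombe intervals and medians order-statistic intervals. With 1 library per antibody no p-value was computed. The peaks, tests and named sites were chosen with earlier results of these data known. Named sites were the 5 highest, the 3 highest with TRIM28 and OGA, the 3 highest with OGA alone, the 3 with the highest TRIM28 peaks, the 3 farthest from Pol II, the peaks at the edge of the rule and the richest 1 Mb window. Alternatives covered threshold, overlap, distance, chromosomes, height and list length. Gene and sequence tables were of another build (GRCh38), so neither genes nor sequences of the peaks are given. The code was tested on simulated data, and bedtools 2.31.1 also gave 1021 peaks. The tools were matplotlib 3.10.9, statsmodels 0.14.6, scipy 1.17.1, pandas 2.3.3, numpy 2.4.6 and Python 3.11.15.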

Additional observations from a re-analysis of the deposited data

Results flagged for a closer look

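O-GlcNAc peaks outside chromosomes 1 to 22 were left out of the comparisons. They are given because more than the 3 peaks that a count of 0 allows met the same rule on X and on Y, a low bar that says nothing of how the shares compare. On chromosome X, 50 of 263 O-GlcNAc peaks had neither Pol II nor SPT5 (interval of the share 14.7% to 24.2%, above the 11.4% of chromosomes 1 to 22). TRIM28 met 3 of these 50 and OGA met 5, and their fold enrichments ran from 1.28 to 9.70 with a median of 3.92. On chromosome Y, 6 of 14 peaks met the rule (42.9%, 21.4% to 67.4%), and OGA met 3 of them. Of the 5 O-GlcNAc peaks on the mitochondrial genome, 0 met it.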

How the results depend on the processing

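Of 56 alternatives over the 9 values fixed for this set, 45 stayed within the 95% interval of the value or within 1.5 times the count, and 11 moved. The count ran from 841 to 1313 peaks. Among peaks whose −log10 q reached 5, in every list, the share of O-GlcNAc peaks without Pol II or SPT5 was 10.6%, the median fold enrichment 4.15 and the median width 246 bp; weak peaks leave the list there by construction. With an overlap of 50% of the shorter peak required, the share was 12.6%, and the median distances were 57379 bp to Pol II and 31286 bp to SPT5. With the SPT5 and TRIM28 lists shortened to the length of the Pol II list, the share was 14.6%, that with TRIM28 4.34%, the median width 239 bp, and the distances 58847 bp to Pol II and 49842 bp to SPT5; more peaks pass the rule when SPT5 peaks are removed. This alternative, the one with peaks of fold 2 and over and the one with summits within 250 bp were chosen after seeing the data. Under the main rule and 4 alternatives the TRIM28 interval of the Pol II/SPT5-free peaks lay below those of the other 2 groups, and the OGA interval overlapped that of the peaks with SPT5 alone. Of the Pol II/SPT5-free peaks with OGA, 20.8% to 36.0% had TRIM28. The share ran from 58.8% (10 of 17) to 80.0% at OGA-bearing peaks with SPT5 alone. It ran from 66.3% to 92.5% at those with Pol II and SPT5, so it depended on the lists in these groups too. No paired analysis was possible because each antibody had 1 library. The depth of the libraries is unknown, and a deeper Pol II or SPT5 library could list further peaks at these sites.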

Other observations

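The deposited values of the O-GlcNAc list repeat. The same pair of fold enrichment and −log10 p as at another O-GlcNAc peak was found at 601 of the 1021 Pol II/SPT5-free peaks (58.9%, interval 55.8% to 61.8%), and the most frequent pair, 4.30 and 11.3, at 9 of them. The share was 57.2% (56.1% to 58.4%) at peaks with Pol II and SPT5, with an overlapping interval. The summit stood near the middle of the peak in both, at a median of 48.3% of the width (47.5% to 49.0%) and 49.5% (49.1% to 49.8%).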
